A study of Mus musculus with 8 samples.

Results

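The genes described here are 36 genes of mitosis, of which 15 act at the centromere or kinetochore and 21 act elsewhere in the dividing cell. They were taken by name, through the probesets that the platform's probe table assigned to their symbol alone, by a rule that uses no measured value, although the list was drawn up with earlier results of these data known. All 36 were measured, among 19937 genes tested. The study measured gene expression in NMuMG, a line of mouse mammary gland epithelial cells that undergoes an epithelial-mesenchymal transition with TGFbeta. One line stably carried a control vector and the other a vector expressing major satellite, the short repeat that fills the heterochromatin around mouse centromeres, so that both were transfected lines. Each line was untreated (0 h) or treated with TGFbeta for 8 h, with 2 Affymetrix gene arrays in each of the 4 groups. No source used here gives the vectors' promoters, the TGFbeta dose or whether each line was 1 clone or a pool.

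Each array title ended in 1 of 2 codes, and each code occurred once in every group. The labels do not say what the codes mark, and first and second are used here without any order in time. Values of a group are given in the order of the first and the second title code, and the labels do not say that the arrays came from separate cultures, so the spread behind each p-value may be technical. Array medians were 7.72 to 7.76 log2 units with the first code and 7.88 to 7.92 with the second. Of the epithelial markers, Krt8 ranged from 14.19 to 14.42, Krt18 from 13.50 to 13.95 and Cdh1 from 12.72 to 13.16 over the 8 arrays, and Epcam ranged from 6.53 to 7.16, Cldn7 from 6.70 to 7.03 and Esrp1 from 5.90 to 6.28. The table gives no detection calls, so these levels do not say whether a gene was absent. All values are log2 expression values, changes are log2 differences, and errors after ± are standard errors of the fitted difference unless called SD.

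A kinetochore is assembled on the centromere of each chromosome, holds the spindle's microtubules, and keeps the spindle checkpoint active until every chromosome is attached. In mouse cells the centromere lies next to blocks of major satellite, where the chromosomal passenger complex gathers before anaphase. Transcripts of most genes of this kind rise late in the cell cycle, in G2 and mitosis, under the MuvB complex with B-Myb and FoxM1, and are held down in resting cells by the DREAM complex. TGFbeta is known to arrest many epithelial cells in G1.

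After 8 h of TGFbeta, transcripts of mitotic genes were lower in both lines. The median change of the 36 members was -0.26 in control vector cells and -0.29 in major satellite cells, where the medians of all genes were 0.01 and 0.03. Without the title code in the model, these medians rested on single arrays. Without the second-code treated array of the line they were -0.029 and -0.046, and without the first-code one -0.53 and -0.52. Without the first-code untreated major satellite array the median in those cells was -0.17. With the title code in the model, leaving out each array in turn gave -0.41 to -0.14 in control vector cells. In major satellite cells it gave -0.38 to -0.23. Of the members, 35 were below 0 in control vector cells, 31 in major satellite cells and 33 in the average of both lines, counts that were the same after median centring and after quantile normalization of the arrays. The average changes ran from -0.65 for Ect2 to 0.04 for Cenpa, and 90% of all genes lay between -0.48 and 0.41. In no comparison did a member pass the test described below as higher. In a bulk sample, fewer cells in mitosis and less of a transcript per cell cannot be told apart.

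How many of these falls passed the test depended on whether the title code was in the model. A gene passed at a limma adjusted p under 0.05 over all 19937 genes. With the 4 group means alone, Ect2 and Kif11 fell in the average of both lines, 2 of 36 members against 2.25% of all genes, and 0 members passed in either line on its own, against 0.366% of all genes lower in control vector cells and 0.411% in major satellite cells. Unadjusted limma p-values were under 0.05 for 7 members in control vector cells, 4 in major satellite cells and 11 in the average. These counts were not set against the share of all genes at that cut. With the title code as a further term, here called blocked, 11 members fell in control vector cells (7.63% of all genes), 9 in major satellite cells (8.38%) and 19 in the average (13.1%). Blocked, 11.2% of all genes rose in the average, and none of the members did. The codes paired the arrays, as described under the processing.

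The blocked counts within 1 line rested on single arrays. Without either control vector array of the second code, untreated or treated, 0 members fell in control vector cells. Without the second-code array of untreated or treated major satellite cells 2 members fell in those cells, and without the first-code untreated array 5 did. The count for the average of both lines was 14 to 23 over the 8 arrays left out in turn.

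Counting pairs of arrays with the same vector and the same code gave the same direction without a model. In all 4 pairs, 25 of the 36 members were lower with TGFbeta, against 20.2% of all genes, and 0 were higher in all 4. The share was 11 of 15 among centromere and kinetochore members and 14 of 21 among the others. For 10 members, every one of the 4 treated arrays lay below every one of the 4 untreated arrays, against 7.37% of all genes. These 10 were Ndc80, Mad2l1, Ttk, Ccna2, Kif11, Hmmr, Kif23, Anln, Ect2 and Top2a.

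**Figure D1:**
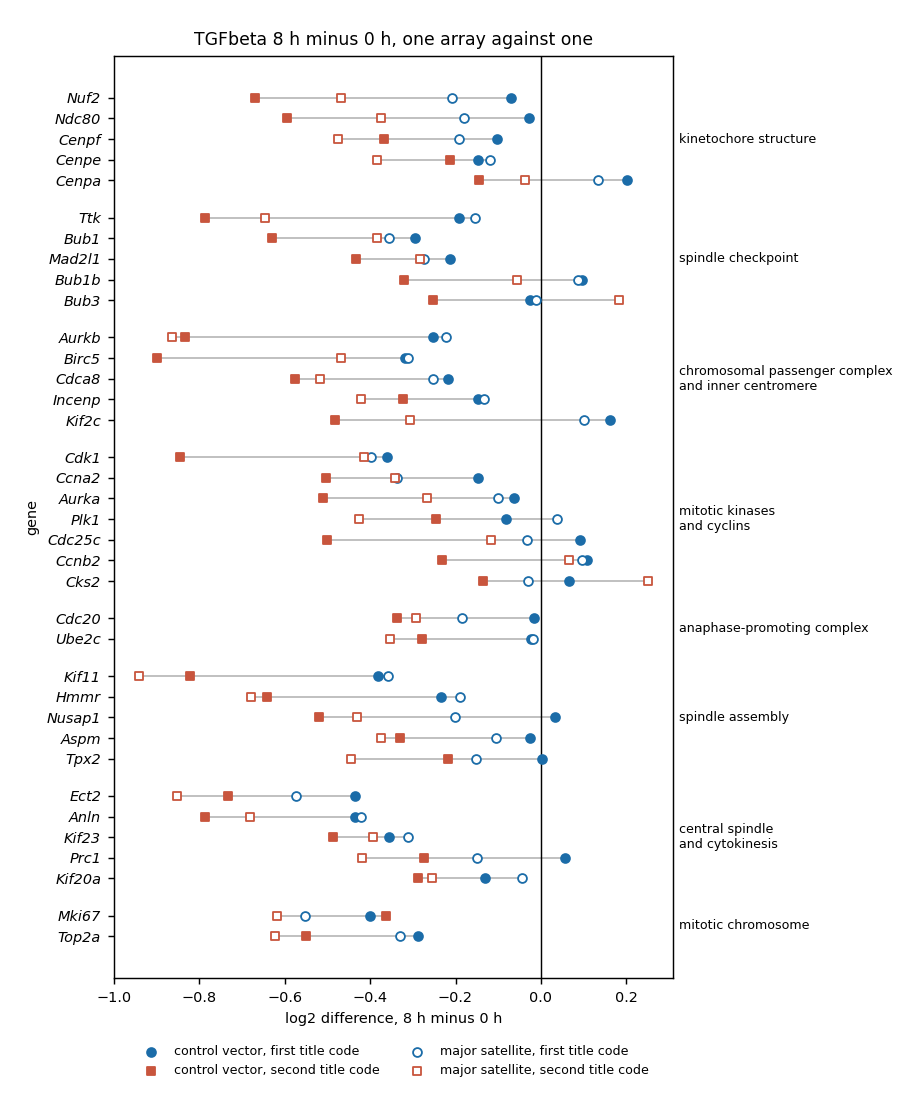
Log2 difference (8 h minus 0 h of TGFbeta) of the 36 members in each pair of arrays with the same vector and title code, grouped by role; each symbol is 1 array minus 1 array. Most symbols lie left of 0, and those of the second title code lie farther left than those of the first for most members.

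Markers of epithelial and other cell types were read from the same arrays. The summed level of the 8 fibroblast markers (log2 of the sum of linear values) was 10.19 to 10.46 on untreated arrays and 10.50 to 10.68 on treated ones. Of the 8, 4 were higher with TGFbeta in all 4 pairs, against 22% of all genes. In all 4 pairs 0 were lower, against 20.2%. Pdgfra rose by 0.66 (limma adjusted p = 0.0281 without the block), and no other fibroblast marker passed. The 10 epithelial markers summed to 15.67 to 15.84 untreated and 15.66 to 15.76 treated, a sum set mostly by the brightest probesets. Within that list Cldn4 rose by 2.25 and Krt19 fell by 0.74 (limma adjusted p = 0.000919 and 0.0178 without the block), and the other 8 did not pass. Summed levels, untreated and treated, were for the 6 endothelial markers 9.30 to 9.55 and 9.42 to 9.68, and for 7 measured immune markers of 8 they were 9.85 to 10.16 and 9.90 to 10.24. Their part in the members' falls was not tested.

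Ect2, the exchange factor that activates RhoA at the division plane, had the largest fall. It stood at 12.58 and 12.65 in untreated control vector cells and at 12.15 and 11.92 after TGFbeta, and at 12.71 and 12.72, then 12.14 and 11.87, in major satellite cells. All treated arrays were below all untreated arrays, and the average fall was -0.65 ± 0.10 (limma adjusted p = 0.0182), 1.57-fold lower. Left-out arrays moved that p between 0.0403 and 0.0803, and it stayed under the threshold only without a first-code treated array, control vector or major satellite; blocked, it was 0.000234 with all arrays and at most 0.00207. After median centring the limma adjusted p without the block was 0.0816, and the call was lost. Kif11, the motor that pushes spindle poles apart, stood at 12.06 and 12.41, then 11.68 and 11.59, in control vector cells and at 12.10 and 12.42, then 11.75 and 11.48, in major satellite cells. Its groups did not overlap either, and the fall was -0.63 ± 0.13 (limma adjusted p = 0.0475; blocked 0.00201). Without the block this call was lost with any 1 array left out, with limma adjusted p of 0.0576 to 0.165, and also after median centring (0.0746) and quantile normalization (0.0813).

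Promoters of the members, a list of mitosis genes taken by name, were searched for short motifs. The shares given here describe that list and do not depend on its change with TGFbeta. RefSeq windows of 300 bases, from 250 before to 50 after the annotated start on GRCm38.p6, were matched by symbol for 30 of the 36 members. The letters TTTGAA are the core of the cell cycle genes homology region, the element bound by the MuvB complex, and CCAAT is the box bound by NF-Y. Counted on both strands, TTTGAA was in the windows of 23 of 30 members (76.7%), against 20.2% of the 27025 genes with a window. The letters CCAAT were also in 23 of 30 members (76.7%), against 41.1% of all genes, and both were in 1 window of 20 members (66.7%), against 7.97%. The related letters TTTAAA, their own reverse complement, were in 9 of 30 members (30.0%), against 14.9% of all genes.

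The median average TGFbeta change was -0.28 in members with TTTGAA in a window and -0.30 in members with a window that lacks it. The letters were in 8 of 13 centromere and kinetochore members (61.5%) and in 15 of 17 other members (88.2%). Median changes with and without them were -0.21 and -0.35 in the centromere and kinetochore members. In the other members, where few windows lack the letters, they were -0.39 and -0.12. These differences were not tested. Shown here, with matches to these 3 motifs on either strand in capitals, are the windows of the 3 members with the largest falls. Also shown are Birc5, which fell without TTTGAA or CCAAT in its window, and Ccnb2, a member with little change. Both were chosen after their values were seen. Of the 6 largest falls with a window, those of Cdk1 and Mki67 are not shown. Each of these 2 windows held TTTGAA 2 times and CCAAT 3 times. The windows are, in the order printed, chr3:27153829-27154128 on the minus strand, chr19:37376132-37376431 on the plus strand, chr9:22389157-22389456 on the minus strand, chr11:117848987-117849286 on the plus strand and chr9:70421505-70421804 on the minus strand.
Ect2: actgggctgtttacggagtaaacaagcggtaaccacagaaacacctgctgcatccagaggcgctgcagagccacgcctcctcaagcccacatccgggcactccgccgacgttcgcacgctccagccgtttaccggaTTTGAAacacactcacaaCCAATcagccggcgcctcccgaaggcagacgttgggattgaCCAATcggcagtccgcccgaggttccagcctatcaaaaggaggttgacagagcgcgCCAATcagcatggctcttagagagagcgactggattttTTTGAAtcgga
Kif11: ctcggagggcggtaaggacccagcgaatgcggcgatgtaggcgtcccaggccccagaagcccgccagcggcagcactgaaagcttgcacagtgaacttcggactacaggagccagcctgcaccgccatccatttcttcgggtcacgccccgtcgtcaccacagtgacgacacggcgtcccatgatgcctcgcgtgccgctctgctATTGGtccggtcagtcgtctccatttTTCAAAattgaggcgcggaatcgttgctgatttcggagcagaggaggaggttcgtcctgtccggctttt
Anln: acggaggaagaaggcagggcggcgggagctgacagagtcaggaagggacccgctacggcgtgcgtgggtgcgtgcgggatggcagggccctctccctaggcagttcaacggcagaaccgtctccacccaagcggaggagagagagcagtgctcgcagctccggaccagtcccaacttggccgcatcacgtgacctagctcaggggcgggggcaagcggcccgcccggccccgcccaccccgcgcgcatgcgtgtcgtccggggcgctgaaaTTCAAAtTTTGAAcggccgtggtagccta
Birc5: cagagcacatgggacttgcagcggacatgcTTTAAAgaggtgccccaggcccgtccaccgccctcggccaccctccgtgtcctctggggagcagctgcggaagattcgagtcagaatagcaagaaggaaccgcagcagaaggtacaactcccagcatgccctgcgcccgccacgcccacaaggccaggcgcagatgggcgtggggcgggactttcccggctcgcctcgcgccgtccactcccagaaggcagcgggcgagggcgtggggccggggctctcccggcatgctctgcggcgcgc
Ccnb2: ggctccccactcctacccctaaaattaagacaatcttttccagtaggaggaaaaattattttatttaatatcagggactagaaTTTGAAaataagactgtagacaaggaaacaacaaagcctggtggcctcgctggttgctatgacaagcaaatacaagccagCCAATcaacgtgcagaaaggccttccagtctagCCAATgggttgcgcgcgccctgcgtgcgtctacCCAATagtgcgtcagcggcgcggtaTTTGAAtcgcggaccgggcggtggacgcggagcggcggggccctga
Ect2 and Ccnb2 both held TTTGAA 2 times and CCAAT 3 times, and changed by -0.65 and 0.01. A match is a description of these letters and not a binding site.

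Among the 5 members of the kinetochore itself, 4 fell blocked in the average of both lines, where 13.1% of all genes fell. That share also stands beside the blocked counts of the other roles below. Cenpa did not change beyond its error. Ndc80 and Nuf2 are subunits of the complex that binds microtubules. Ndc80 stood at 9.63 and 9.80, then 9.60 and 9.21, in control vector cells and at 9.73 and 9.79, then 9.55 and 9.42, in major satellite cells. Its treated arrays were all below its untreated arrays, with a fall of -0.29 ± 0.09 (blocked limma adjusted p = 0.0445). Nuf2 fell by 0.35 ± 0.10 on the log2 scale (blocked limma adjusted p = 0.0249), with 10.56 and 10.43, then 10.49 and 9.76, in control vector cells and 10.75 and 10.39, then 10.54 and 9.92, in major satellite cells. The first-code treated arrays of Nuf2 overlapped the untreated arrays and the second-code ones did not.

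Cenpe, a kinetochore motor, and Cenpf, which links the outer kinetochore to dynein, differed far more between the title codes than with TGFbeta. Cenpe stood at 9.41 and 10.92, then 9.26 and 10.71, in control vector cells and at 9.27 and 10.97, then 9.15 and 10.58, in major satellite cells. Within each code and vector the treated array was the lower one, and the fall was -0.22 ± 0.07 blocked (limma adjusted p = 0.0427) and -0.22 ± 0.60 without the block (0.956). Cenpf fell by 0.28 ± 0.07 blocked (limma adjusted p = 0.0208). Cenpa, the histone variant that marks the centromere, stood at 11.78 and 11.69, then 11.98 and 11.55, in control vector cells and at 11.87 and 11.66, then 12.00 and 11.63, in major satellite cells. Cenpa was higher with TGFbeta in the first code and lower in the second, in both vectors, with an average of 0.04 and a blocked 95% confidence interval of -0.13 to 0.20.

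Of the 5 spindle checkpoint members, Bub1, Mad2l1 and Ttk fell blocked. Bub1, the kinase that recruits other checkpoint proteins to kinetochores, stood at 11.24 and 11.72, then 10.95 and 11.09, in control vector cells and at 11.30 and 11.71, then 10.94 and 11.33, in major satellite cells. Every treated array was below the untreated array of its code, and Bub1 fell by 0.42 ± 0.07 (blocked limma adjusted p = 0.00221). Mad2l1, the checkpoint's inhibitor of Cdc20, fell by 0.30 ± 0.06 (blocked limma adjusted p = 0.00664), and Ttk, the kinase also known as Mps1, fell by 0.44 ± 0.11 (0.0143). The groups of both did not overlap. Bub1b averaged -0.05 with a blocked 95% confidence interval of -0.22 to 0.13, and Bub3, the adaptor that carries Bub1 and Bub1b to kinetochores, -0.03 with an interval of -0.19 to 0.13.

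In the chromosomal passenger complex, the kinase Aurkb fell by 0.54 ± 0.12, its partner Birc5 (survivin) by 0.50 ± 0.09 and Cdca8 (borealin) by 0.39 ± 0.08, with blocked limma adjusted p of 0.00883, 0.00331 and 0.00563. Aurkb stood at 12.64 and 12.41, then 12.39 and 11.58, in control vector cells and at 12.72 and 12.38, then 12.50 and 11.51, in major satellite cells. Birc5 stood at 10.82 and 10.28, then 10.50 and 9.38, in control vector cells and at 10.98 and 10.18, then 10.66 and 9.71, in major satellite cells. In both genes the second-code treated arrays were the lowest of all, and the treated arrays of the first code overlapped or lay above the untreated arrays of the second. Incenp, the scaffold of the complex, averaged -0.26 ± 0.08 (blocked limma adjusted p = 0.0527) and was lower in all 4 pairs. Kif2c, a microtubule depolymerase of the inner centromere, averaged -0.13 ± 0.11 (0.436). Kif2c stood at 10.76 and 10.51, then 10.92 and 10.03, in control vector cells and at 10.88 and 10.43, then 10.99 and 10.12, in major satellite cells, higher with TGFbeta in the first code and lower in the second.

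Blocked, 10 of the 15 centromere and kinetochore members and 9 of the 21 others fell in the average of both lines, against 13.1% of all genes. The median changes were -0.29 and -0.24, and the difference between the sets was not tested.

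Of 7 mitotic kinases and cyclins, only Cdk1 and Ccna2 fell blocked. Cdk1, the kinase that drives entry into mitosis, stood at 12.86 and 12.53, then 12.50 and 11.68, in control vector cells and at 12.92 and 12.42, then 12.53 and 12.00, in major satellite cells. Its fall was -0.50 ± 0.08 (blocked limma adjusted p = 0.00161), and its first-code treated arrays overlapped the second-code untreated ones. Ccna2, a cyclin of S phase and early mitosis, fell by 0.33 ± 0.07 (0.00751) with no overlap of its groups. Ccnb2, a mitotic cyclin and partner of Cdk1, stood at 12.70 and 12.69, then 12.81 and 12.46, in control vector cells and at 12.69 and 12.54, then 12.79 and 12.60, in major satellite cells. Treated and untreated arrays of Ccnb2 overlapped, and the blocked 95% confidence interval of its change was -0.15 to 0.17. Cks2, a small subunit of Cdk complexes, averaged 0.04, and its 3 probesets gave -0.03 to 0.04. Plk1, Aurka and Cdc25c, which promote entry into mitosis, averaged -0.18, -0.24 and -0.14 (blocked limma adjusted p = 0.152, 0.0615 and 0.32).

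The activator Cdc20 and the conjugating enzyme Ube2c of the anaphase-promoting complex averaged -0.21 ± 0.07 and -0.17 ± 0.08 (blocked limma adjusted p = 0.0658 and 0.147). Neither passed, and both were lower in all 4 pairs.

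Of 5 genes of spindle assembly, Kif11 and Hmmr fell blocked. Hmmr, a spindle protein that is also a hyaluronan receptor, stood at 10.34 and 10.53, then 10.10 and 9.88, in control vector cells and at 10.30 and 10.51, then 10.11 and 9.83, in major satellite cells. All its treated arrays were below all its untreated ones, and it fell by 0.44 ± 0.09 (blocked limma adjusted p = 0.00819). Nusap1, Tpx2 and Aspm, which bind spindle microtubules, averaged -0.28, -0.20 and -0.21 (blocked limma adjusted p = 0.052, 0.07 and 0.0846).

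Of 5 genes of the central spindle and cytokinesis, Ect2, Anln and Kif23 fell blocked. Anln, the scaffold of the contractile ring, stood at 12.32 and 12.07, then 11.88 and 11.28, in control vector cells and at 12.32 and 12.09, then 11.89 and 11.41, in major satellite cells. Its groups did not overlap, and it fell by 0.58 ± 0.08 (blocked limma adjusted p = 0.000547; 0.165 without the block). Kif23, the motor of centralspindlin, fell by 0.39 ± 0.06 (blocked 0.00126), also without overlap. Kif20a and Prc1, a motor and a bundling protein of the central spindle, averaged -0.18 and -0.20 (blocked limma adjusted p = 0.0785 and 0.0971).

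Both genes of the mitotic chromosome fell blocked. Mki67, which coats mitotic chromosomes and is the common marker of cycling cells, stood at 11.83 and 12.72, then 11.43 and 12.36, in control vector cells and at 11.84 and 12.78, then 11.28 and 12.16, in major satellite cells. Within each code the treated arrays were lower, and the fall was -0.48 ± 0.06 (blocked limma adjusted p = 0.000277). Top2a, which disentangles sister chromatids, stood at 12.34 and 12.30, then 12.06 and 11.75, in control vector cells and at 12.36 and 12.36, then 12.03 and 11.74, in major satellite cells. It fell by 0.45 ± 0.07 (blocked limma adjusted p = 0.00179) with no overlap. A second, dimmer probeset of Top2a averaged 0.11, with 9.08 on the second-code treated major satellite array and 6.55 to 7.68 on the other arrays.

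**Figure D2:**
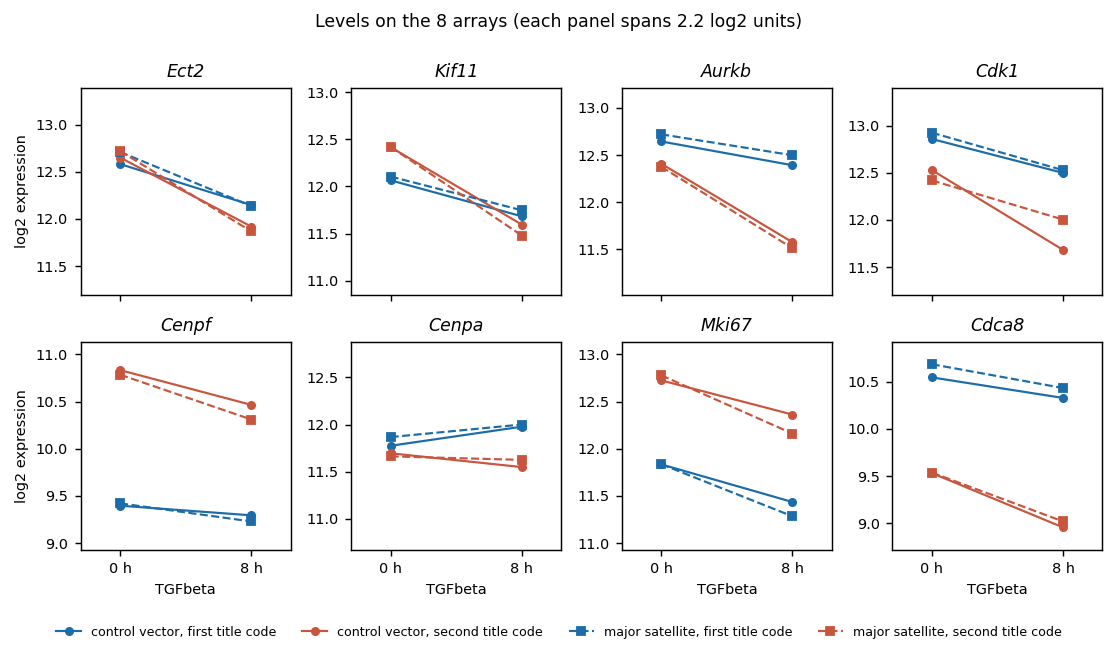
Log2 expression of Ect2, Kif11, Aurkb, Cdk1, Cenpf, Cenpa, Mki67 and Cdca8 without (0 h) and with 8 h of TGFbeta; each line joins the 2 arrays of 1 vector and title code, and every panel spans the same number of log2 units. Ect2 and Kif11 fall along all 4 lines, and the Cenpf and Mki67 lines of the second title code lie above those of the first.

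The title code accounted for more of the variance than TGFbeta did in 24 of the 36 members, and TGFbeta for more in 12. The same count was not made over all genes. Over the members, the median share of the variance across the 8 arrays was 62.0% for the code, 20.8% for TGFbeta and 0.501% for the vector, and over all genes it was 41.9%, 13.3% and 2.45%. Of the 12, Ect2, Kif11 and Hmmr had 91.8%, 83.7% and 78.4% for TGFbeta and 2.40%, 1.28% and 0.333% for the code, and Cenpe had the highest share for the code, 97.2%. In 17 of 36 members all 4 second-code arrays were below all 4 first-code arrays, against 23.4% of all genes. In 4 members (Cenpe, Cenpf, Aspm and Mki67) they were all above, against 12.7%. The mean difference, second minus first code, was 1.53 for Cenpe, 1.26 for Cenpf and 0.91 for Mki67, and it was -1.24 for Cdca8, -0.85 for Birc5, -0.84 for Aurka and -0.77 for Cdc20. The mean difference between the codes was below 0 in 30 of the 36 members, and the average TGFbeta change was below 0 in 33. These 2 counts are not set against all genes here.

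The TGFbeta changes of most members were also more negative in the second code. In 33 of 36 members the change was more negative there in both vectors, against 29.9% of all genes, and the exceptions were Bub3, Cks2 and Mki67. The median of the members' mean change was -0.14 in the first code and -0.41 in the second, where the median over all genes was 0.02 in both. Tested as an interaction of TGFbeta and code, with both vectors as replicates, 0 members passed (limma, with 0.231% of all genes more negative in the second code). Unadjusted limma p was under 0.05 for 21 members, a count not set against the share of all genes at that cut. With a trend in the variance prior, 1 member passed. The smallest adjusted p was that of Aurkb, 0.0776 (limma), whose change was 0.61 lower in the second code: -0.25 in control vector cells and -0.22 in major satellite cells in the first code, and -0.83 and -0.86 in the second. Mki67 changed by about the same in both codes, -0.48 and -0.49.

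**Figure D3:**
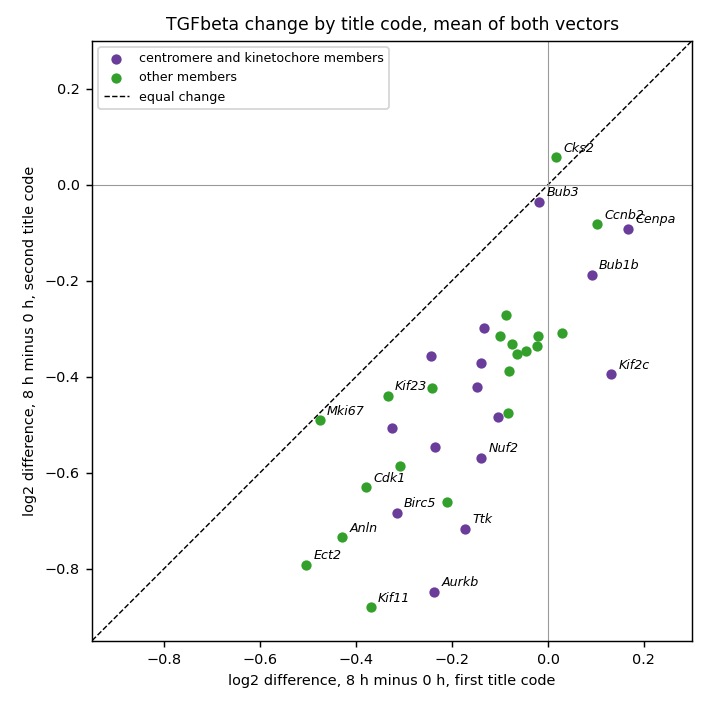
Change with TGFbeta (log2, mean of both vectors) of each member on the arrays of the first title code (horizontal axis) against the second (vertical axis); the dashed line marks equal change. Nearly all members lie below the line, with Aurkb and Kif11 among the farthest from it and Mki67 on it.

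The order of the members' changes was similar in the 2 codes and in the 2 vectors. Across the 36 members, the changes of the first and second code correlated at r = 0.755, and those of the vectors at r = 0.878 within the first code and 0.678 within the second. These are correlations across genes, which are not independent replicates, and arrays of 1 code share that code.

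No member differed detectably between the 2 vectors. The comparison asks whether centromere and kinetochore transcripts differ in cells that overexpress the repeat next to the centromere. No member passed without TGFbeta, with it, or in the average of both, with or without the block (limma); unadjusted p was under 0.05 for 0 members in each comparison without the block, and for 1, 0 and 1 with it. Of all genes, 0.00502%, 0.00502% and 0.01% passed without the block and 0.0301%, 0.0301% and 0.0853% with it. The average differences, major satellite minus control vector, ran from -0.08 for Cenpe to 0.21 for Cdc20 with a median of 0.04, and the medians were 0.05 for centromere and kinetochore members and 0.03 for the others. All blocked 95% confidence intervals of the average lay between -0.25 and 0.37.

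Cdc20 had the largest difference between the vectors. Untreated, it stood at 11.45 and 10.79 in control vector cells and at 11.69 and 11.03 in major satellite cells, and after TGFbeta at 11.43 and 10.45 and at 11.50 and 10.74. Major satellite was higher in all 4 pairs, by 0.21 ± 0.07 blocked, with a 95% confidence interval of 0.05 to 0.37 and a limma adjusted p of 0.874. Cdc20, Ttk, Cdca8 and Kif23 were higher in all 4 pairs, 4 of 36 members against 8.45% of all genes, and 0 were lower in all 4, against 8.11%. These shares are near those of all genes.

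The TGFbeta changes of the 2 lines were also compared directly. The difference of the changes, major satellite minus control vector, ran from -0.20 for Mki67 to 0.22 for Bub3, with a median of 0.02, and 0 members passed in limma with or without the block, where 0% of all genes did and no member had an unadjusted p under 0.05. Blocked 95% confidence intervals of single members had half-widths of 0.259 to 0.537, with a median of 0.347.

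**Figure D4:**
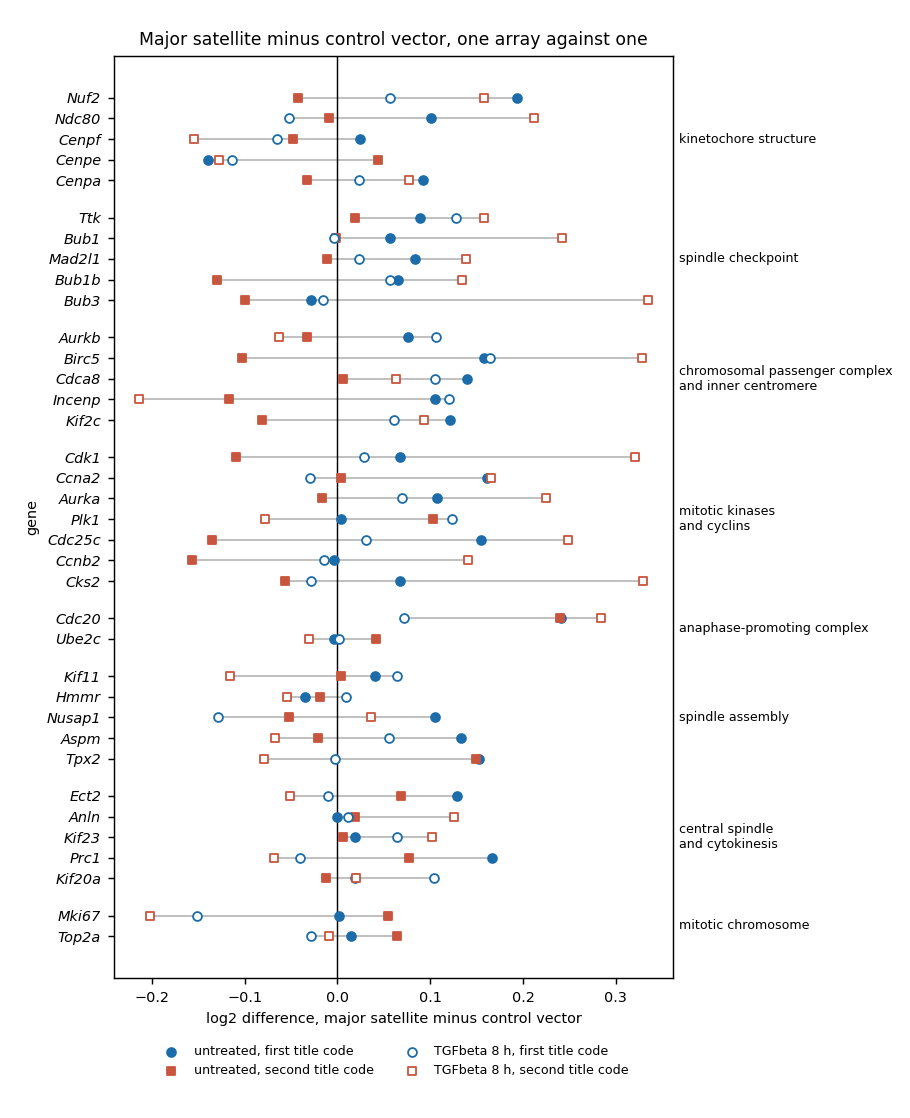
Log2 difference, major satellite minus control vector, of the 36 members in each pair of arrays with the same time and title code, grouped by role; each symbol is 1 array minus 1 array. The symbols lie on both sides of 0, between -0.21 and 0.33, and those of Cdc20, Ttk, Cdca8 and Kif23 all lie to the right.

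Other genes of the same processes, from lists drawn up with earlier results of these data known, were lower too. Of 37 further centromere and kinetochore genes 4 fell without the block and 31 blocked, of 49 further mitosis genes 2 and 39, of 21 regulators of mitotic genes 2 and 13, and of 39 DNA replication genes 4 and 38, all in the average of both lines, where 2.25% of all genes fell without the block and 13.1% blocked. Their median changes were -0.45, -0.49, -0.32 and -0.55. Of these genes 2 rose blocked, against 11.2% of all genes, and none without the block: Cenpt, a centromere protein that carries the Ndc80 complex, by 0.23 ± 0.06 and Lin37, a subunit of MuvB, by 0.24 ± 0.06 (blocked limma adjusted p = 0.0246 and 0.0207). Both were named after their values were seen.

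Cenph and Cenpq, of the inner kinetochore, fell by 1.003 ± 0.16 and 0.78 ± 0.14 (limma adjusted p = 0.0216 and 0.0308 without the block), beyond every member. Cenph stood at 9.46 and 9.64, then 8.77 and 8.15, in control vector cells and at 9.66 and 9.44, then 8.78 and 8.49, in major satellite cells, with no overlap of its groups. Ska2 and Zwilch, of the outer kinetochore, fell by 0.54 ± 0.11 and 0.73 ± 0.15 (0.0419 and 0.0487). Cenpb, which binds minor satellite, averaged 0.10 (0.925; blocked 0.284). Ncapd3 and Ckap2, a condensin subunit and a spindle protein, fell by 0.74 ± 0.12 and 0.51 ± 0.09 (0.0236 and 0.0264), and Ncapg and Fbxo5, an inhibitor of the anaphase-promoting complex, averaged -0.62 and -0.96 (0.0538 and 0.0545; both passed blocked).

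Among the regulators, Rbl1, the pocket protein p107, and Lin54, the MuvB subunit that binds TTTGAA, fell by 0.60 ± 0.11 and 0.49 ± 0.10 (limma adjusted p = 0.032 and 0.0436). E2f8, a repressor of E2F targets, and Lin9, another MuvB subunit, averaged -1.18 and -0.48 (0.0538 and 0.0805; both passed blocked). Mybl2, which encodes B-Myb, stood at 10.93 and 10.18, then 10.13 and 8.97, in control vector cells and at 11.17 and 10.17, then 10.38 and 9.15, in major satellite cells. It was lower in every pair, by 0.95 ± 0.08 blocked (4.73e-05; 0.366 without the block), and Foxm1 by 0.50 ± 0.11 (0.00841; 0.546). E2f4, the E2F of the DREAM complex, averaged 0.00 with a blocked 95% confidence interval of -0.14 to 0.14.

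Of the DNA replication genes, Ccne2, the cyclin E that starts S phase, fell most among those named. It stood at 9.81 and 9.79, then 8.79 and 8.11, in control vector cells and at 9.75 and 9.73, then 8.66 and 8.64, in major satellite cells. It fell by 1.22 ± 0.15 (limma adjusted p = 0.00878), and Rfc1, Rpa3 and Orc6, of the replication machinery, fell by 0.58, 0.55 and 0.67 (0.0237, 0.0331 and 0.0333). All 39 measured genes of that list were below 0 in the average, and 38 of them were lower in all 4 pairs, against 20.2% of all genes.

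**Figure D5:**
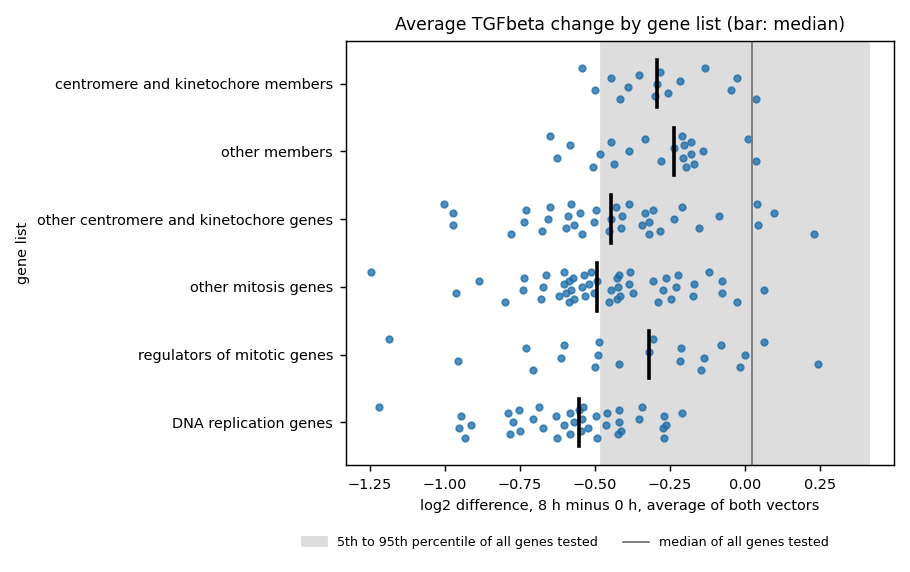
Average change with TGFbeta (log2, both vectors) of every measured gene of 6 lists; points are genes, the black bar is the list's median, the grey line the median of all genes and the grey band their 5th to 95th percentile (-0.48 to 0.41). The medians of both member lists lie nearer to 0 than those of the other lists of mitotic and replication genes.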

How the data were processed

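Each array gave 1 log2 expression value a probeset, as deposited by the authors. Robust multi-array average (RMA) and limma are named per the submitters' processing notes, without version, role or genome build. Of 34760 probesets, 21640 had 1 gene symbol in the platform's probe table, 1321 had several and 11799 had none, and only the first were used. For genes with several probesets the one with the highest mean was taken, which left 19937 genes. The tests used limma (version 3.58.1, in R 4.3.3) and its functions lmFit, contrasts.fit and eBayes at their defaults, on 4 group means over 8 arrays (4 residual degrees of freedom), two-sided, and Benjamini-Hochberg adjustment over all genes at 0.05. The blocked model added the title code (3 residual degrees of freedom). The codes come from the array titles, and deviations from the group means correlated at 0.758 to 0.874 between arrays of 1 code, so they were taken as pairs. The number of arrays limits the precision. Alternatives were the block, median centring, quantile normalization, a filter on dim genes, the mean over probesets, a variance trend and leaving out each array. All members are named. Of each wider list the 4 genes with the smallest p in the average change are named, with Cenpb, Foxm1, Mybl2 and E2f4. The members and lists were chosen with earlier results of these data known.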

Additional observations from a re-analysis of the deposited data

Results flagged for a closer look

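In 3 members the change with TGFbeta had opposite signs in the 2 title codes, up in both vectors with the first code and down in both with the second. How many of all genes do so was not counted, and each such change is 1 array against 1. The change, second minus first code, was -0.26 for Cenpa, -0.28 for Bub1b and -0.53 for Kif2c. Tested as an interaction of TGFbeta and code in limma, none passed (adjusted p = 0.556, 0.575 and 0.135).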

How the results depend on the processing

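The direction of the members' average TGFbeta change did not turn under median centring, quantile normalization, the filter on dim genes or the variance trend for any of the 36 members. Top2a alone turned sign in 1 line, major satellite, when the probesets of a gene were averaged. The replicate block (the title code) moved the counts of members that fell from 0 to 11 in control vector cells, from 0 to 9 in major satellite cells and from 2 to 19 in the average. The average count was 0 after median centring and 1 after quantile normalization, and the count for the interaction of TGFbeta and code went from 0 to 1 with the variance trend. With 1 array left out, the counts were 0 in each line and 0 to 1 in the average without the block, and 0 to 13, 2 to 12 and 14 to 23 with it. Without the block, the members' median change then ranged from -0.53 to -0.029 in control vector cells and from -0.52 to -0.046 in major satellite cells. In the average it ranged from -0.39 to -0.18. With the block the ranges were, in the same order, -0.41 to -0.14, -0.38 to -0.23 and -0.34 to -0.22. Over these left-out arrays 11 members turned sign in the average without the block (changes up to 0.285 in size) and 5 with it (up to 0.0481), 21 and 7 in control vector cells (up to 0.397 and 0.205), and 18 and 5 in major satellite cells (up to 0.39 and 0.11). In the average difference between the vectors all 36 turned sign without the block and 24 with it. The median difference between the vectors, without the block, ranged from -0.07 to 0.11 untreated and from -0.16 to 0.27 with TGFbeta. In the average it ranged from -0.067 to 0.15. With the block these ranges were, in the same order, -0.092 to 0.15, -0.056 to 0.16 and -0.022 to 0.096. The median difference of the responses ranged from -0.21 to 0.24 without the block and from -0.12 to 0.14 with it. Where a group was left with 1 array, that array was assumed to vary like the other groups. The cause of these changes was not tested.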
